A study of Anas platyrhynchos x Cairina moschata with 205 samples.

Results

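PDHA1 encodes the alpha subunit of the E1 component of pyruvate dehydrogenase, and it is 1 of the 81 target genes measured in the livers of mule duck embryos and hatchlings. The gene was chosen by measured values, namely that its difference between heated and control livers had opposite signs at 5 h and 7 h of the first trial, and that its level was higher in hatchlings than at embryonic day 16 (E16) in the second trial. These values are therefore described below without a test. The deposited tables spell it PDAH1 and tie it to the transcript XM_027448330.2, named there as pyruvate dehydrogenase E1 subunit alpha 1.

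Pyruvate dehydrogenase is a mitochondrial enzyme complex that turns pyruvate, the end product of glycolysis, into acetyl-CoA. Its E1 component carries out the first and committed step, and phosphorylation of the alpha subunit switches the complex off, so the transcript level is not a measure of activity. In liver, the acetyl-CoA made in this way can be burned in the citric acid cycle or exported as citrate for fatty acid synthesis, which in birds takes place mainly in the liver.

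The thermal manipulation (TM) groups came from incubators raised by 1 °C, and the control groups from incubators kept at the usual temperature, all with eggs of 1 genotype, H85. In the first trial 112 livers were taken at E13, at 30 min and at 1, 2, 3, 4, 5 and 7 h of the increase, and in the second trial 93 livers were taken at E12, E16, E20, E24, E28 and E30. The increase was applied for part of each day from E13 until before E28, and E30 livers are those of hatchlings. The livers of E16, E20 and E24 were taken 1 h into it. E12 preceded the period of the increase and E28 followed it, although the labels give the livers of both days the same time mark. Each group held 8 livers from separate animals, except the control group of E16, which held 5. The livers of 1, 3 and 5 h came from 1 pair of TM and control incubators and those of the other hours from another pair, while the second trial had 1 incubator per group until a common hatchery was used from E28. Temperature and incubator therefore cannot be told apart at any point from E13 on.

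Transcripts were measured by quantitative PCR on Fluidigm chips. The cycle threshold (Ct) is the cycle at which a product is detected, so a lower Ct means more template. The deposited value is a ratio relative to 4 reference genes and to the average over all livers of a trial. Where a reference gene had no Ct, the ratio was relative to the others. Among livers with a PDHA1 ratio and Ct, TM replicate 3 of 2 h and TM replicate 1 of 4 h lacked luciferase. Control replicate 3 of 5 h had a Ct for 2 of the 4. Ratios are given here on the log2 scale, where a difference of 1 equals 1 cycle and a value of 0 is the average of the trial. Levels were set within a trial only, since each trial has its own average and reference genes.

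PDHA1 had a Ct in 202 of the 205 livers, between 13.0 and 21.1 cycles, and a deposited ratio in 198. In 5 livers a Ct stood beside a blank ratio. The number of genes with a ratio per liver lay between 18 and 81, with a median of 77, and 8 livers stood apart by few ratios, few reference genes or a late luciferase Ct. Of these 8, only control replicate 3 of 5 h and TM replicate 8 of E12 had a PDHA1 ratio. ALB, the albumin of hepatocytes, had a Ct in all 204 livers with any Ct, with a median of 7.88 cycles, and STAB1, of sinusoidal endothelium, in 201, with a median of 19.5. In whole liver, fewer cells that hold a transcript and less of it per cell cannot be told apart.

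At 5 h PDHA1 was higher in TM livers. The TM livers lay between 0.13 and 1.25, with a median of 0.71 (n = 7), and the control livers between −0.37 and 0.82, with a median of 0.01 (n = 8). The groups overlapped, but 7 of 7 TM livers lay above the control median. The means were 0.62 ± 0.44 in TM and 0.09 ± 0.46 in control livers (SD), a difference of 0.53 ± 0.23 (SE), or 1.45-fold. The control livers included replicate 3, which stood apart with 47 ratios and a Ct for 2 of the reference genes. Without it the difference was 0.48 (n = 7 each). With each liver centred on other genes of the panel, and replicate 3 kept, it was 0.39. The median difference of the 75 other genes tested at this point was 0.21. Of these genes, 13.3% passed an unadjusted exact permutation p under 0.05.

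At 7 h PDHA1 was lower in TM livers. The TM livers lay between −1.11 and 0.34, with a median of −0.25 (n = 8), and the control livers between −0.37 and 1.46, with a median of 0.73 (n = 7). Again the groups overlapped, with 8 of 8 TM livers below the control median. The means were −0.24 ± 0.48 in TM and 0.56 ± 0.65 in control livers (SD), a difference of −0.80 ± 0.30 (SE), or 0.576-fold. The median difference of the 72 other genes tested here was −0.28, and 13.9% of them passed the same permutation threshold, all of them lower in TM livers.

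The size of both differences depended on the reference. At 5 h the difference was 0.21 against ACTB alone, 0.26 against STAB1, 0.34 against USP9X and 1.17 against luciferase, a foreign RNA spiked in ahead of reverse transcription. At 7 h it was −0.74 against ACTB, −0.62 against STAB1, −0.39 against USP9X and −1.53 against luciferase. All of these had the sign given by the 4 genes together. The Ct of PDHA1 itself was 17.95 ± 0.86 in TM and 18.05 ± 0.67 in control livers at 7 h (n = 8 each), so the raw cycles of the groups were nearly equal. Averaged over the 4 reference genes, the Ct differed by −1.23 cycles in TM livers at this point (exact permutation p = 0.00497, n = 8 each). For the 3 endogenous ones it differed by −0.76 cycles (exact permutation p = 0.0381, n = 8 each), and the part of either in the difference of PDHA1 was not tested. The 8 control livers of these Ct at 7 h included replicate 6, which stood apart with 18 ratios and a luciferase Ct of 31.4. This liver had no PDHA1 ratio, so it was not among the 7 control livers of the difference of −0.80. At 5 h the Ct of PDHA1 was 17.9 ± 0.72 in TM and 18.5 ± 0.99 in control livers (n = 8 each). TM replicate 6, which had no PDHA1 ratio, was among them.

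Some marker genes of liver cells passed the unadjusted exact permutation test at these points, and none had a limma adjusted p under 0.05. At 5 h 4 of 4 hepatocyte markers were positive, with a median of 0.41 beside 0.21 over the genes other than PDHA1. APOB, the apolipoprotein B of hepatocytes, passed with 0.67 (exact permutation p = 0.0364, n = 7 TM and 8 control livers), where 13.3% of those genes passed. At 7 h 1 of 4 hepatocyte markers was positive, with a median of −0.40 beside −0.28 over the genes other than PDHA1. ALB passed with −0.66 (exact permutation p = 0.0171, n = 8 TM and 7 control livers), where 13.9% of those genes passed. The summed ratios of these 4 markers lay between 3.49 and 9.49 in TM and between 2.78 and 9.39 in control livers at 5 h, and between 2.45 and 5.56 in TM and between 3.56 and 7.31 in control livers at 7 h (n = 7 livers with all 4 in each group). The groups thus overlapped at both points.

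Of the markers of other liver cells, TGFb1, a growth factor, differed by 2.60 at 5 h (exact permutation p = 0.0246, n = 8 TM and 6 control livers) and by −1.23 at 7 h (exact permutation p = 0.0455, n = 7 TM and 6 control livers). HGF, the hepatocyte growth factor, had 0.07 at 5 h and −0.12 at 7 h. Over all 13 points, hepatocyte markers passed in 4 higher and 3 lower of 52 tests and those of other liver cells in 2 higher and 1 lower of 23. The share over all genes was 10.2% of 993 tests. Without the livers that stood apart, APOB at 5 h had 0.42 (exact permutation p = 0.0682, n = 7 each), and TGFb1 at 5 h had 3.08 (exact permutation p = 0.0253, n = 7 TM and 5 control livers). The part of these markers in the differences of PDHA1 was not tested.

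**Figure D1:**
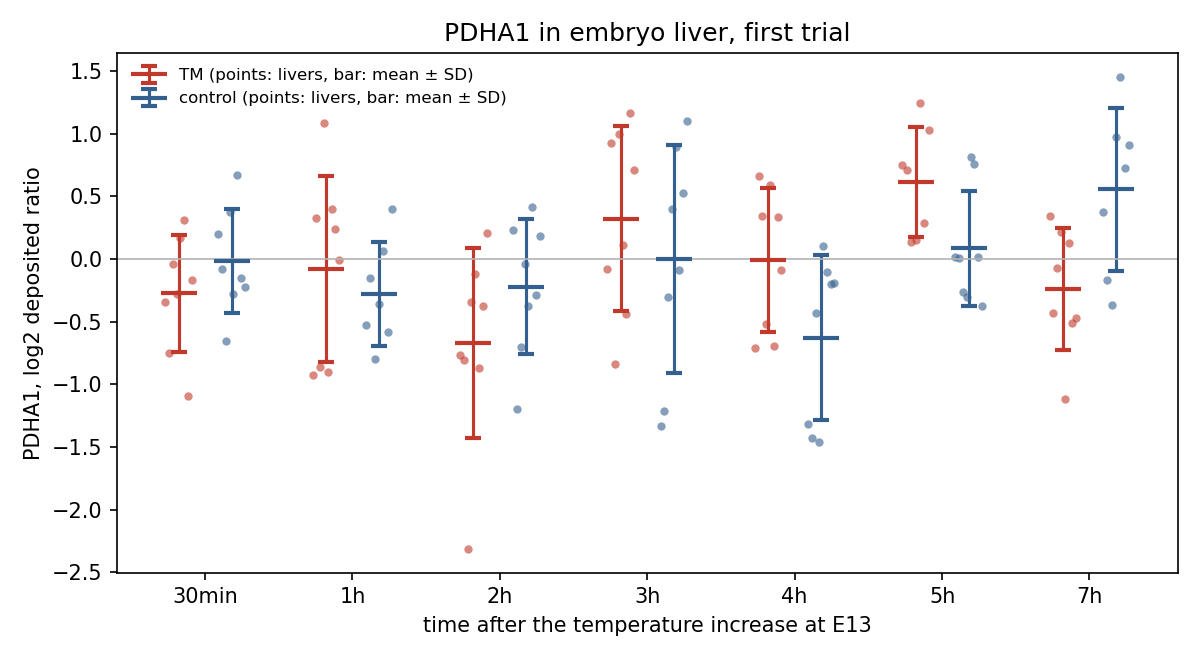
Log2 ratio of PDHA1 in each liver of the first trial against the time after the temperature increase, with TM livers left of control livers and the mean ± SD of each group. At 5 h the TM mean of 0.62 lies above the control mean of 0.09, and at 7 h the TM mean of −0.24 lies below the control mean of 0.56, with overlapping livers at every point.

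The other 5 hourly points were not used to choose the gene. No difference between TM and control livers passed the exact two-sided permutation test at any of them. At 30 min the TM livers lay between −1.10 and 0.31 and the control livers between −0.65 and 0.67, with a difference of −0.26 ± 0.22 (SE, n = 8 each, exact permutation p = 0.262), where 7.79% of the genes tested passed. At 1 h the difference was 0.20 ± 0.31 (n = 8 TM and 7 control livers, exact permutation p = 0.543, 10.7% of genes passing). At 3 h it was 0.32 ± 0.41 (n = 8 each, exact permutation p = 0.442, 12.2% passing).

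At 2 h the difference was −0.45 ± 0.33 (SE, n = 8 each, exact permutation p = 0.195, 7.89% of genes passing). The TM livers lay between −2.31 and 0.21 and the control livers between −1.20 and 0.42. A single TM liver, replicate 3, lay far below the others, and without it the difference was −0.22 (n = 7 TM livers, exact permutation p = 0.389).

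At 4 h the TM livers lay between −0.71 and 0.67, with a median of 0.13, and the control livers between −1.46 and 0.10, with a median of −0.31. The groups overlapped, and 4 of 8 TM livers lay above every control liver. The difference was 0.62 ± 0.31 (SE, n = 8 each), as large as that of 5 h, with an exact permutation p of 0.0662 and a limma adjusted p of 0.854 over the 74 genes, of which 4.05% passed the permutation test. With the 3 endogenous reference genes alone it was 0.71 (exact permutation p = 0.0312, n = 8 each). TM replicate 1, the lowest TM liver at −0.71, had no luciferase Ct, so its ratio was relative to 3 reference genes. Against luciferase alone the difference was 0.82 (exact permutation p = 0.195, n = 7 TM and 8 control livers). The call at 4 h thus depended on the scaling, and on the test as given further below.

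By incubator pair, the differences of PDHA1 were positive at 3 of 3 points from the pair sampled at 1, 3 and 5 h, between 0.20 and 0.53. They were positive at 1 of 4 points from the other pair, between −0.80 and 0.62. The signs at 5 h and 7 h thus come from different incubators, and time and incubator pair cannot be told apart between them. The 14 group means ran from 0.62 in TM livers at 5 h to −0.67 in TM livers at 2 h. In this order no neighbours differed beyond their pooled SD. Neighbours in a sorted order lie close together, so this does not compare the 2 groups of a point.

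In the second trial PDHA1 was higher in hatchlings than at E16 in both groups. In TM livers the hatchlings lay between 1.57 and 2.30, with a median of 1.94, and the E16 embryos between −1.25 and 1.28, with a median of 0.04 (n = 8 each). The 2 ages did not overlap. The means were 1.93 ± 0.23 at E30 and 0.05 ± 0.83 at E16 (SD), a difference of 1.87, or 3.67-fold. This was the ninth largest increase among the 78 genes measured at both ages in TM livers.

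In control livers the hatchlings lay between −0.22 and 2.31, with a median of 1.82 (n = 8). The 4 E16 embryos had −0.88, −0.93, 0.12 and −0.70. A single hatchling, replicate 1 at −0.22, lay within the E16 range, and the other 7 lay above all of it. The means were 1.59 ± 0.81 at E30 and −0.60 ± 0.49 at E16 (SD), a difference of 2.19, or 4.55-fold, and of 2.44 without that hatchling. It ranked 13 of the 80 genes measured at both ages in control livers. Of the other genes, 18.2% of 77 in TM livers and 17.7% of 79 in control livers were higher at E30 at a limma adjusted p under 0.05. The share of other genes whose ages did not overlap, with E30 higher, was 9.09% in TM and 12.7% in control livers.

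The higher level appeared between E28 and E30. From one sampled day to the next, the mean changed by more than the pooled SD in TM livers at E20, which was 0.89 below E16, and at E30, which was 2.19 above E28 without overlap. In control livers only the last step exceeded the pooled SD, by which E30 was 1.86 above E28. In embryos the group means lay between −0.98 in control livers of E20 and 0.15 in TM livers of E12, and in the order of the 12 means no neighbours among them differed beyond their spread. The only gap beyond the spread was the one of 1.43 between control hatchlings and TM livers of E12.

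The raw cycles showed the same step. The Ct of PDHA1 was 15.0 at E30 and 17.7 at E16 in TM livers, and 15.1 at E30 and 17.9 at E16 in control livers. The reference genes also moved between these ages, luciferase by −1.59 cycles in TM and −1.55 in control livers and STAB1 by −0.13 in TM and −0.06 in control livers. Against single references the change of PDHA1 was 1.14 to 2.60 in TM and 1.41 to 3.06 in control livers, positive against each of the 4. The hatchlings also differed from the embryos in the incubator they came from, and the part of this was not tested.

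**Figure D2:**
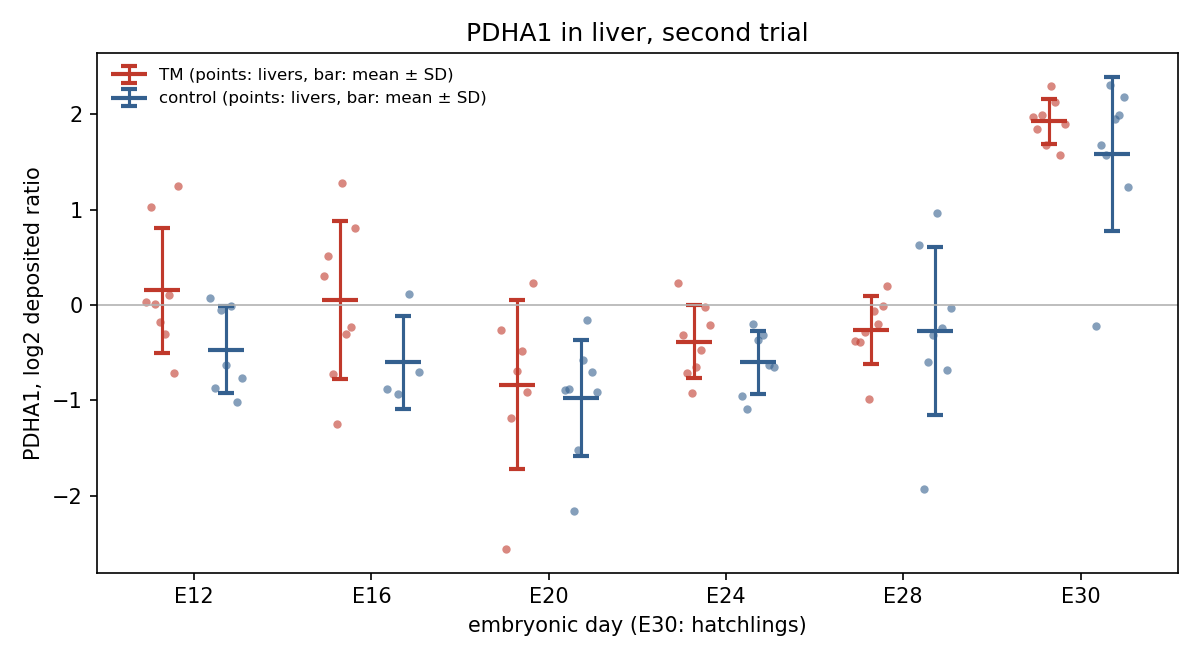
Log2 ratio of PDHA1 in each liver of the second trial against the sampling day, with TM livers left of control livers and the mean ± SD of each group. Hatchlings at E30 average 1.93 in TM and 1.59 in control livers, all embryo groups average 0.15 or less, and 1 control hatchling lies at −0.22.

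Between TM and control livers of the same day, PDHA1 passed the exact permutation test at none of the 6 days, nor at the 5 hourly points above. The smallest p adjusted over these 11 points was 0.364, and the smallest limma adjusted p of PDHA1 over all genes of a point was 0.358, at E16. By that adjusted p, 1.3% of the 77 genes passed at E20 and 0% at the other 12 points. The 2 smallest unadjusted p were those of 4 h and E12. At E12 the TM livers lay between −0.71 and 1.25, with a median of 0.02 (n = 8), and the control livers between −1.01 and 0.07, with a median of −0.63 (n = 7). The groups overlapped, with 7 of 8 TM livers above the control median.

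The difference at E12 was 0.62 ± 0.29 (SE, n = 8 TM and 7 control livers, exact permutation p = 0.0584), where 7.69% of 78 genes passed. By the timeline of the study these livers preceded the increase. The difference did not pass the test, and what it reflects was not tested. Without TM replicate 8 of E12, which stood apart, the difference was 0.46 (exact permutation p = 0.110, n = 7 each). TM replicate 2 had a PDHA1 value of 1.02 and a luciferase Ct of 27.8, just under the limit of 28 for standing apart. It was kept, and the difference at E12 was not tested without it. With all deposited Ct the difference was 0.44 (exact permutation p = 0.209, n = 8 each). The mean Ct of the endogenous reference genes differed by −0.75 cycles in TM livers of E12 (exact permutation p = 0.0131, n = 8 each), and that of the 4 reference genes by −0.38 (exact permutation p = 0.393, n = 8 each). These 8 control livers included replicate 7, which had no PDHA1 ratio. The difference of PDHA1 was 0.30 with the endogenous genes alone and 1.86 against luciferase alone.

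At E16 the 8 TM livers lay between −1.25 and 1.28, around the 4 control values given above. The difference was 0.65 ± 0.38 (SE, exact permutation p = 0.174, n = 8 TM and 4 control livers), against a median of 0.53 over the 79 genes tested, of which 16.5% passed. Centred on the panel, the difference of PDHA1 at E16 was 0.20. At E20, E24 and E28 the differences were 0.14 ± 0.40, 0.22 ± 0.18 and 0.01 ± 0.33, with exact permutation p of 0.729, 0.263 and 0.977 and 7 or 8 livers per group. The shares of genes passing there were 10.4%, 9.09% and 8.86%.

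In hatchlings the difference was 0.34 ± 0.30 (SE, n = 8 each, exact permutation p = 0.311), where 10% of the genes tested passed. It was 0.08 without control replicate 1 (n = 7 control livers, exact permutation p = 0.622). The difference between TM and control livers was compared between days with limma over 80 genes. Minus that of E16, it was −0.51 ± 0.50 (SE) at E20 and −0.43 ± 0.50 at E24, with limma adjusted p of 0.626 and 0.752, where 6.25% and 1.25% of the genes passed. At E30 it was −0.31, given without a test because it is the difference between the 2 increases from E16 that chose the gene.

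**Figure D3:**
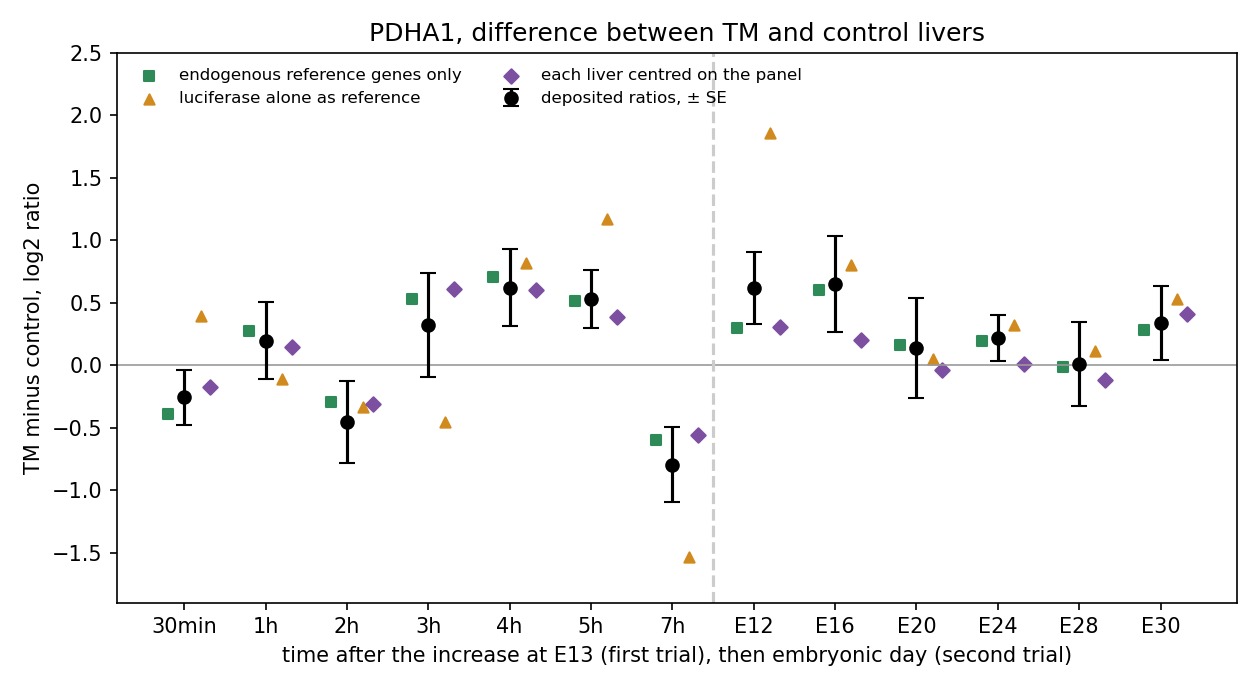
Difference of PDHA1 between TM and control livers (log2) at the 13 sampling points, with its SE for the deposited ratios and with 3 other scalings as coloured symbols. The value is 0.53 at 5 h and −0.80 at 7 h, and luciferase alone gives 1.17 and −1.53 there.

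Among genes that lead up to pyruvate, none of the 7 measured genes of glucose entry and glycolysis rose from E16 to E30 by limma in either group. Of the genes other than PDHA1, 41.6% fell in TM livers and 8.86% in control livers by that test. In TM livers 3 fell, with changes of −1.46 for GAPDH, −0.92 for GLUT2 and −2.10 for GLUT3, the last 2 being glucose transporters. The other TM changes were −0.78 for GLUT1, 0.83 for HK1, −0.33 for HK2 and −0.04 for ENO1. In control livers none of the 7 passed, with changes of −1.37 for GLUT1, 0.46 for GLUT2, −1.11 for GLUT3, −1.28 for HK1, −1.32 for HK2, −0.44 for GAPDH and 0.60 for ENO1. The median of this list was −0.78 in TM and −1.11 in control livers, beside −0.47 in TM and 0.15 in control livers over all genes other than PDHA1.

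Genes that yield acetyl-CoA from other sources were lower at E30, opposite in sign to PDHA1. In TM livers the 4 members reported fell by limma, among them ACAT1, an acetyl-CoA acetyltransferase, with −4.14, CPT1, which carries fatty acids into mitochondria, with −3.68, and ACSS, which makes acetyl-CoA from acetate, with −2.15. ACAA2, of fatty acid oxidation, had −1.89. In control livers 2 of these 4 fell, with −2.35 for ACAT1 and −1.73 for ACSS. The share of genes other than PDHA1 that fell was 41.6% of 77 in TM and 8.86% of 79 in control livers.

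The genes of fatty acid synthesis and of its supply of acetyl-CoA and NADPH were higher together with PDHA1. In both groups 4 of 4 rose by limma from E16 to E30. The share over genes other than PDHA1 was 18.2% of 77 in TM and 17.7% of 79 in control livers. FASN, the fatty acid synthase, rose by 7.28 in TM and 7.16 in control livers, and ACC, the acetyl-CoA carboxylase, by 4.56 in TM and 5.19 in control livers. ACLY, which releases acetyl-CoA from citrate, rose by 2.87 in TM and 2.78 in control livers, and ME, the malic enzyme that yields NADPH, by 3.20 in TM and 2.68 in control livers. The counts of these lists in each group were the same without the livers that stood apart, except that 3 genes in place of 4 could be tested in the second list of control livers. Of the mitochondrial chaperonins, Hsp60 fell by 2.08 in TM livers by limma, where 41.6% of the genes other than PDHA1 fell. No other change of the chaperonins passed.

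**Figure D4:**
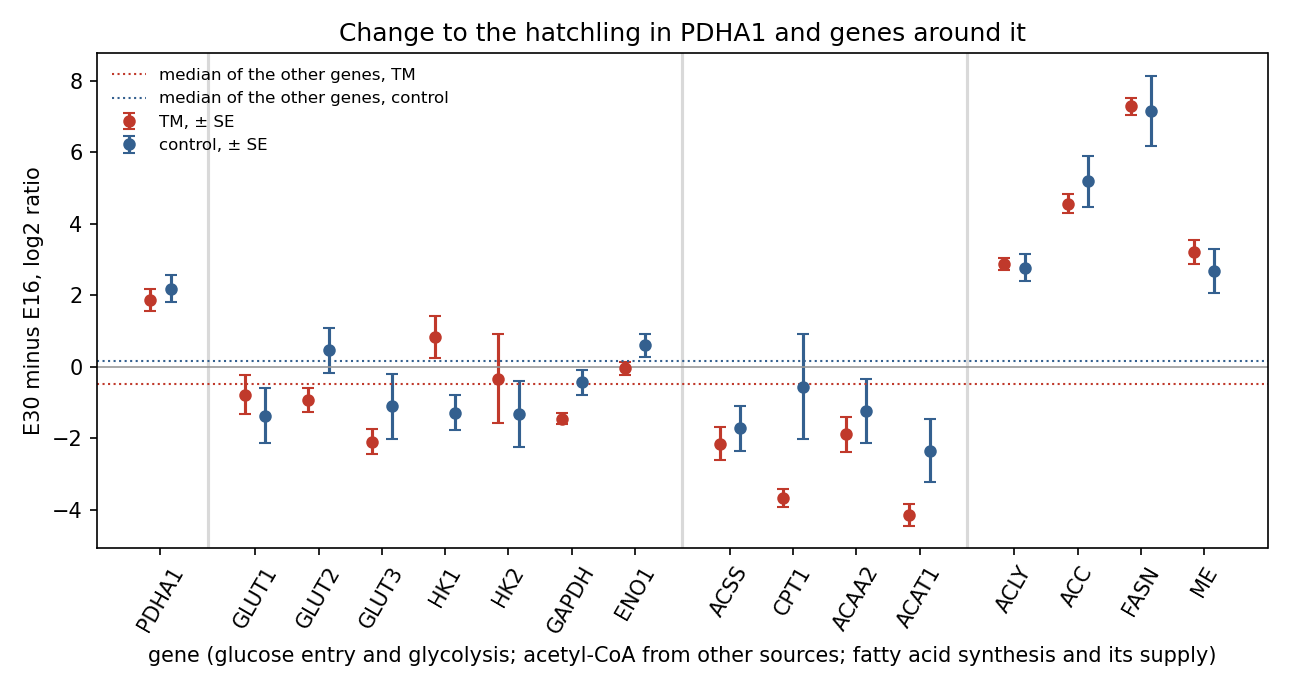
Change from E16 to E30 (log2, ± SE) of PDHA1 and the genes around it, with TM livers left of control livers and dotted lines at the medians of the other genes. PDHA1 changes by 1.87 in TM and 2.19 in control livers, and the 4 genes of fatty acid synthesis and its supply change by 2.68 to 7.28.

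The control hatchling with the low PDHA1 value was also low for these genes. Replicate 1 had −0.24 for FASN, 0.24 for ACC, 0.15 for ACLY and −1.64 for ME, each the lowest of the 8 control hatchlings. The other 7 had at least 5.11 for FASN, 3.68 for ACC, 1.51 for ACLY and 1.58 for ME. Over the panel this liver was the lowest of its group for 21 of 77 genes and the highest for 9. It held 77 ratios, and the mean Ct of its 4 reference genes was 19.4, within the 17.2 to 20.3 of the other control hatchlings.

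Between TM and control livers of one point, few members of these lists passed the exact permutation test. Glucose entry and glycolysis passed in 2 higher and 3 lower of 79 tests, the other sources of acetyl-CoA in 1 higher and 3 lower of 52, fatty acid synthesis and its supply in 2 higher and 1 lower of 52, and chaperonins in 1 higher and 3 lower of 26. Over all genes and points, 10.2% of 993 tests passed. No member of these lists had a limma adjusted p under 0.05 at any point.

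In the glycolysis list, HK2, a hexokinase, differed by −1.71 at 1 h, GLUT1 by −1.25 at 2 h, ENO1, an enolase, by −0.36 at 3 h and 0.24 at 4 h, and GAPDH by 0.72 at E16. Among the other sources of acetyl-CoA, ACAA2 differed by −1.14 at 4 h and by −1.45 at E12, before the increase, and CPT1 by −0.50 at 7 h. At E16 CPT1 differed by 2.80 (exact permutation p = 0.00404, n = 8 TM and 4 control livers), with no overlap, and by 1.43 without the control liver that stood apart (exact permutation p = 0.0121, n = 3 control livers). In fatty acid synthesis and its supply, ACC differed by 1.39 at E16 and 0.77 at E30, and ME by −0.52 at 3 h. At E30 control replicate 1, which was not among the livers that stood apart, had 0.24 for ACC. The other 7 control hatchlings lay between 3.68 and 4.64 and the TM hatchlings between 4.11 and 4.73. The difference of ACC at E30 was not tested without this liver. Of the chaperonins, Hsp60 differed by −1.25 at 1 h, −1.22 at 5 h and 0.92 at E12, and Hsp10 by −0.59 at 3 h. Without the livers that stood apart, Hsp60 at E12 no longer passed (0.92, exact permutation p = 0.0606, n = 6 TM and 7 control livers), and the other members named here did.

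Over the 14 group means of the first trial, the genes most like PDHA1 among 69 were GAPDH (Pearson r = 0.82), CPT1 (0.78) and APOB (0.78), and the least alike were ACSS (−0.55), ACAA2 (−0.53) and FASN (−0.43). The median over these genes was 0.26. Over the 12 group means of the second trial, among 70 genes, they were ACC (0.98), FASN (0.96) and ACLY (0.96), and at the other end LIPC (−0.83), ACAA2 (−0.81) and ACAT1 (−0.76), with a median of −0.08. Without the 2 hatchling groups, r was 0.81 for ACC, 0.64 for FASN and 0.67 for ACLY over 10 means. HSP90AA1, a gene of the heat shock response, then had the highest r (0.82), and Hsp10 (0.75) lay above FASN and ACLY. Genes of other kinds, among them BNIP3 (0.81), SETDB1 (0.75) and TUBA1C (0.75), also lay above FASN and ACLY. ME, of fatty acid synthesis and its supply, had 0.84 with the hatchling groups and −0.11 without them. The likeness without hatchlings was thus not confined to genes of fatty acid synthesis, nor shared by all of them. Over all group means of each trial, FASN lay at opposite ends in the 2 trials. All genes of a liver share its reference genes and its RNA, so these values are descriptions with no test.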

How the data were processed

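Livers were grouped by the labels into 26 groups. The authors deposited, for each gene and liver, a ratio (2 to the power of minus the ΔΔCt) against the geometric mean of the Ct of 4 reference genes, ActB, luciferase, STAB1 and USP9X in the first trial and HPRT1 in place of ActB in the second, and they deposited the Ct values as a separate table. Their processing notes name R 3.6.2. Ratios were recomputed to within 1e-06 cycles from the Ct, with the reference genes that had a Ct in the liver. Blank ratios were left out. Depth is not defined for these data, and precision is limited by 4 to 8 livers per group.

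Log2 ratios were taken without a pseudocount. A gene was tested with 6 livers per group, or 4 where a group held 5. The difference between TM and control means was tested by exact permutation (unadjusted p under 0.05 as in the study). It was computed with own code, two-sided in the form of scipy 1.17.1. The difference was also tested by limma 3.58.1 in R 4.3.3 with Benjamini-Hochberg adjustment over all genes of a point. Contrasts between days and ages used limma's empirical Bayes moderation. Both scripts were tested on simulated data. Reference Ct are printed as arithmetic means. The contrast of E30 with E16 between groups was planned as a test and is given without one. An absolute-difference form of the two-sided p and a minimum of 4 livers in both groups at E16 were also run, after the data were seen. The gene, the lists and the tests were chosen with earlier results of these data known. Named genes are PDHA1, list members past a test or in the glycolysis list, the reference genes and, per trial, the 3 genes most and least like PDHA1. HSP90AA1, BNIP3, SETDB1 and TUBA1C are also named, for their r without the hatchling groups. Replicate numbers were not taken as pairs in the main tests. A gene of the list of other acetyl-CoA sources is not reported here and was left out of its counts.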

Additional observations from a re-analysis of the deposited data

Results flagged for a closer look

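The log2 ratio of PDHA1 lay far from the other livers of its group in 2 of 26 groups, by a gap to the nearest liver that exceeded Dixon's critical value, which chance does in about 1 in 20 groups. TM replicate 3 at 2 h had −2.31, and the other 7 TM livers lay between −0.87 and 0.21. Its Ct of PDHA1 was 20.3, it held 74 ratios, and it had no luciferase Ct. Luciferase had the highest mean Ct of the reference genes in TM livers of 2 h, at 21.9. A reference mean without luciferase is thus lower, which lowers the ratio, and the part of this in the value of −2.31 was not tested. Without this liver the TM mean at 2 h was −0.44 ± 0.40 (SD, n = 7). Control replicate 1 at E30 had −0.22, and the other 7 control hatchlings lay between 1.24 and 2.31. Its Ct of PDHA1 was 17.4 and its luciferase Ct 20.8. Without it the control mean at E30 was 1.85 ± 0.37 (SD, n = 7). What set these livers apart was not tested.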

How the results depend on the processing

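At 5 h and 7 h, and between E16 and E30, PDHA1 kept its sign under every scaling run. Luciferase alone moved the difference to 1.17 at 5 h and −1.53 at 7 h, and the change to E30 to 1.14 in TM and 1.41 in control livers. With luciferase alone the sign turned at 30 min (0.39), 1 h (−0.11) and 3 h (−0.45). Centred on the panel it turned at E20 (−0.039) and E28 (−0.11), and with the endogenous reference genes only at E28 (−0.017). None of these passed a test. By unadjusted exact permutation p, the difference of 4 h passed with the endogenous reference genes (0.71) and centred on the panel (0.60). In 1 limma fit per trial (0.62) and with the replicate number as a block (0.62 with this replicate block) it passed by limma p without adjustment over genes. The replicate block changed no other call. Same-numbered livers deviated together, by a correlation over 0.1, in 28 of 101 pairs. No share for unpaired livers was set beside this, so it cannot decide whether the numbers pair livers. The paper states that control and TM eggs of the first trial were dissected alternately, and the labels do not tie the numbers to that order. With all deposited Ct the difference was 0.71 at 5 h and −1.04 at 7 h.

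Leaving out 1 liver at a time gave 0.43 to 0.64 at 5 h, −0.95 to −0.65 at 7 h and 0.47 to 0.89 at E16, where the exact permutation p lay between 0.0667 and 0.315, and from E16 to E30 1.69 to 2.05 in TM and 2.08 to 2.44 in control livers. Without the outlying liver the difference was −0.22 at 2 h and 0.08 at E30. The two-sided form of the permutation p, chosen after seeing the data, changed no call of PDHA1. In its scipy form 101 of 993 tests passed over all genes and points, leaving out PDHA1 at 5 h and 7 h, and by the absolute difference also 101, with other counts at 4 points, among them 13 and 14 genes at E16. A minimum of 4 livers in both groups at E16 left that count at 13.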
